A study of Rattus norvegicus with 6 samples.

Results

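The genes described here are the known targets of ATF4, the transcription factor at the end of the integrated stress response, together with the enzymes, transporters and tRNA synthetases through which a cell makes, imports and charges amino acids. They were chosen by name, from a list of 44 symbols, as the rows of the deposited gene table with an identical gene name. The list was drawn up with earlier results of these data known. The table holds 19266 genes, and 43 of the 44 symbols matched a row. Cbs did not match and was not analysed here. RNA was measured by poly(A)-selected RNA sequencing in 6 libraries of wild-type rat bone marrow mesenchymal stem cells, named by the cell line SCSP-402. In all 6 libraries the stem cells had shared a co-culture with BV2 cells, a microglial line from mouse. In 3 libraries lipopolysaccharide (LPS), a bacterial cell wall component sensed by toll-like receptor 4, had been added to the co-culture, and 3 had received none. The series asked how the stem cells restrain microglial activation. The sources used here do not give the dose and duration of LPS or how the stem cells were parted from the BV2 cells. Nothing in the labels says that replicates were separate cultures. The spread on which the p-values rest is that of these libraries and may be technical.

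In the integrated stress response, kinases that sense amino acid shortage, unfolded protein, double-stranded RNA or heme deficiency phosphorylate the initiation factor eIF2. General translation then falls, while translation of the Atf4 mRNA rises. ATF4 protein binds C/EBP-ATF response elements and raises genes that restore amino acid supply, along with feedback regulators that end the response. In bone-forming cells ATF4 is known for supporting amino acid import and the production of collagen. Because ATF4 is largely controlled at translation, the level of its mRNA does not give the level of its protein, which was not measured here.

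The libraries held between 77.4 M and 82.03 M deposited count units, or 19.3 M to 20.5 M fragments if a fragment is worth 4 units. Of 12 mesenchymal stromal markers, only Lepr stayed under 1 FPKM (fragments per kilobase and per M fragments) in every library. Of the 10 that were tested, 5 were higher with LPS (Thy1, Eng, Nt5e, Pdgfra and Pdgfrb), 4 were lower (Col1a1, Col1a2, Col3a1 and Itgb1) and Cd44 did not pass. Their summed level, most of it the 3 collagen genes, was 22309 to 24505 FPKM in untreated and 17162 to 17572 FPKM in LPS libraries. Of 15 microglia and macrophage markers in the table, 12 stayed under 1 FPKM in every library. Ptprc, Trem2, C1qa and C1qb were at 0 in all LPS libraries and Aif1 was at 0 in all untreated libraries. The summed level of these 15 markers ran from 10.1 to 21.9 FPKM in untreated and from 14.0 to 41.0 FPKM in LPS libraries, most of it Fcer1g and Cd14. The 4 endothelial markers summed to at most 0.768 FPKM. The first principal component carried 76.5% of the variance. Untreated replicate 1 lay at -11.0 on it, apart from untreated replicates 2 and 3 at -26.7 and -26.6, with the LPS libraries between 19.5 and 22.5. Ribosomal RNA genes took from 0.0653% to 0.162% of counts in untreated and from 0.0925% to 1.28% in LPS libraries. Mitochondrial genes took 2.60% to 2.85% in untreated and 2.90% to 3.20% in LPS libraries, with no overlap. The part of these differences in the results below was not tested, other than by leaving out each library in turn. In bulk RNA, fewer cells of a type and less RNA per cell cannot be told apart.

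With LPS, RNA of nearly the whole module was lower. Of the 43 genes, all of which passed the filter on low values, 39 were lower, 3 were higher and 1, Eif4ebp1, did not pass the test. A gene was called when its adjusted p over all 11559 tested genes was under 0.05 by edgeR's quasi-likelihood test. By that rule 19.0% of all tested genes were lower and 20.1% higher, beside 90.7% of module genes called lower. Their difference is a description, as the list was drawn up with earlier results of these data known. Of the 43 genes, 40 also lay above the median level of all tested genes, 7.70 FPKM. The median log2 fold change (LPS minus untreated) was -0.50 over the module and 0.00 over all tested genes. The 39 genes called lower and the 3 called higher were those in which the FPKM of the 2 groups did not overlap. Among all tested genes the groups were separate with LPS lower in 20.6% and with LPS higher in 32.8%. Most of the falls were modest. A log2 fold change of -0.50 or below was called for 21 of the 43 genes, against 6.13% of all tested genes, and of -1 or below for 6, against 197 of the 11559. Together the 43 genes took 0.737% to 0.791% of all counts in untreated and 0.576% to 0.594% in LPS libraries.

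**Figure D1:**
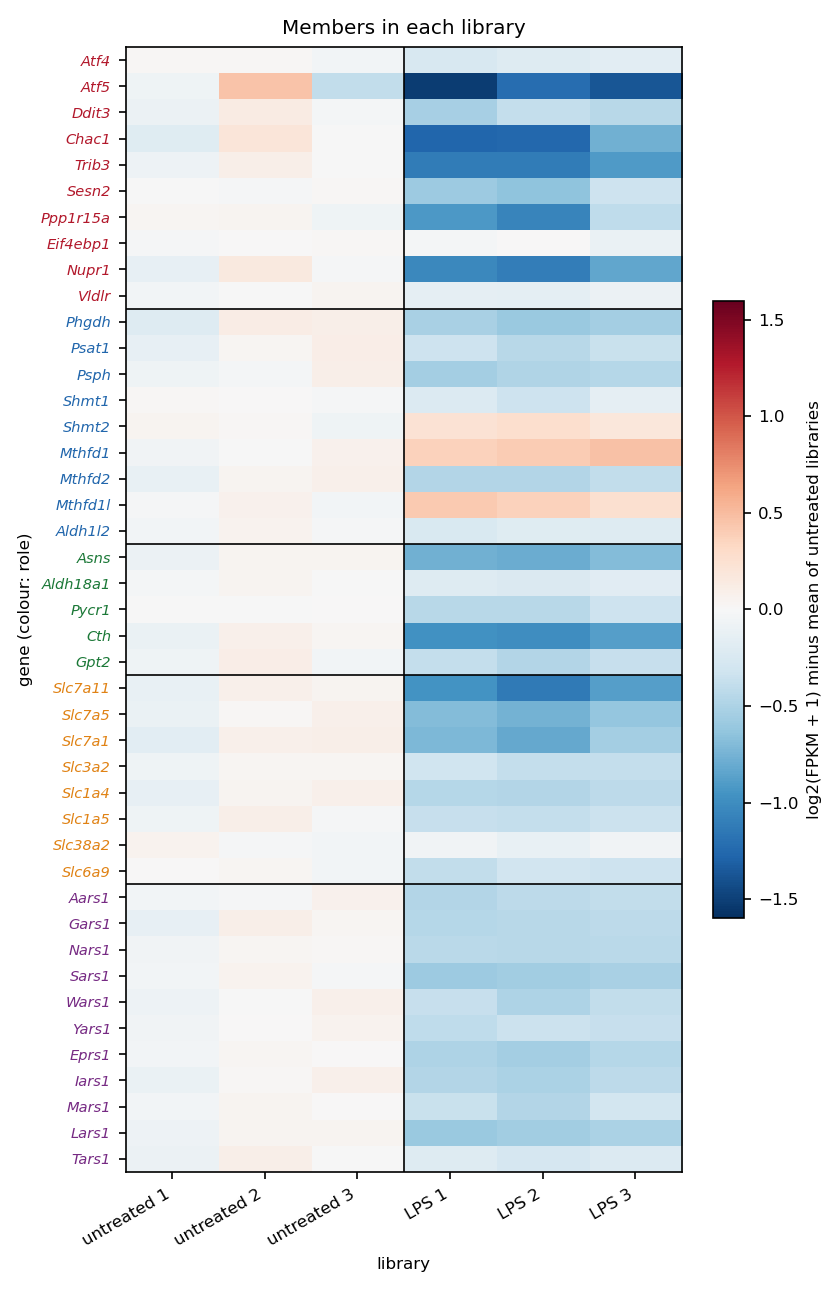
Each row is 1 gene and each column 1 library, and the colour gives log2(FPKM + 1) minus the mean of the 3 untreated libraries. Gene names are coloured by role. In the 3 LPS columns 39 of 43 rows lie on the blue side, Vldlr only faintly and Slc38a2 near white. Shmt2, Mthfd1 and Mthfd1l are on the red side there, and Eif4ebp1 is near white.

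The core of the C/EBP-ATF response element, TGATGNAA, was searched on both strands of the RefSeq promoter windows (assembly GRCr8, 250 bases before to 50 after the gene start). A window was found for 37 of the 43 genes. None was found for Eif4ebp1, Mthfd1, Aldh1l2, Aldh18a1, Slc1a5 and Gars1. At least 1 match lay in the windows of 12 of the 37 genes, or 32.4%. Matches were found in 3.98% of all 33469 windows, or 4.16% of the 27457 genes with a window. Of the 8688 tested genes that have a window, 2.07% held one. The list includes known ATF4 targets, so its higher share may follow from how it was chosen, whatever LPS did. Of the 37 genes with a window 35 were lower with LPS, including all 12 with a match, and 2 were higher. With so few higher, whether a match goes with the direction of change could not be tested within the module. Among the 1676 tested genes with a window outside the module that were called lower, 2.80% held a match. The form TGATGCAA is contained in the first motif and was singled out after the matches were seen. It lay in the windows of 10 of the 37 genes and of 0.827% of all genes with a window. A match is a description of the sequence and was not tested for binding.

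Matches were most frequent among the tRNA synthetases, where 6 of 10 windows held one. Of the 7 windows of serine and one-carbon genes, 0 held one. The stretches of 60 bases around the matches of the synthetase genes are shown because these genes moved as a block. They read 5′ to 3′ in the direction of the gene, with the match in capitals. TTGCATCA is TGATGCAA read on the opposite strand.
Aars1: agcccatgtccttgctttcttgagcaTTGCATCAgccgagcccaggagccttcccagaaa
Aars1: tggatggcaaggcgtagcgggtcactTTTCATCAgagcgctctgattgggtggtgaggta
Iars1: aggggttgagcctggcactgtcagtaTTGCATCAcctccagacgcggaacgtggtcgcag
Mars1: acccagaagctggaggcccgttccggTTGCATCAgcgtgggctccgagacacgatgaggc
Nars1: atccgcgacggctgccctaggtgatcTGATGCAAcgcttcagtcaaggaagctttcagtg
Tars1: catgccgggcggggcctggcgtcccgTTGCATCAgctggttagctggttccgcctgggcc
Yars1: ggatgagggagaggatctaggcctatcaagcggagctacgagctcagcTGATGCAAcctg
The 2 stretches of Aars1 lie at chr19:55908344-55908403 and chr19:55908465-55908524 on the plus strand. The others lie at chr17:15193643-15193702 on the minus strand for Iars1, chr7:65023737-65023796 on the minus strand for Mars1, chr18:60275763-60275822 on the minus strand for Nars1, chr2:62114796-62114855 on the minus strand for Tars1 and chr5:146820153-146820212 on the plus strand for Yars1 (GRCr8). Counted from the gene start, the first matched base stood at -24 in Iars1, -17 in Mars1, -14 in Nars1 and -27 in Tars1. In Aars1 the matches began at -112 and 10, and in Yars1 the match began at 39, inside the transcribed part.

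Outside the synthetases, the stress genes Chac1, Nupr1 and Trib3, the proline enzyme gene Pycr1 and the transporter genes Slc1a4 and Slc7a1 held a match. Their stretches are shown to set the element beside that of the synthetases.
Chac1: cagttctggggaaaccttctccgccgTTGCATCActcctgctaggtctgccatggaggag
Nupr1: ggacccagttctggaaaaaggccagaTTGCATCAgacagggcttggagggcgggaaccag
Trib3: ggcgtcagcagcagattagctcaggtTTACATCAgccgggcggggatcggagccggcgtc
Pycr1: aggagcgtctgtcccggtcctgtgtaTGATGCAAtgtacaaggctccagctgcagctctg
Slc1a4: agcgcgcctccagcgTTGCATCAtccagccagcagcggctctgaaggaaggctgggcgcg
Slc7a1: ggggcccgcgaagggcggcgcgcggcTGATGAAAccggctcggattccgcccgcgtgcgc
They lie at chr3:126795938-126795997 on the plus strand for Chac1, chr1:190645923-190645982 on the minus strand for Nupr1, chr3:161275521-161275580 on the minus strand for Trib3, chr10:106420910-106420969 on the minus strand for Pycr1, chr14:98761753-98761812 on the minus strand for Slc1a4 and chr12:11664432-11664491 on the plus strand for Slc7a1 (GRCr8). The matches began at -167 in Chac1, -55 in Nupr1, -21 in Trib3, -131 in Pycr1, -235 in Slc1a4 and -30 in Slc7a1. The window of Nupr1 lies on the minus strand, while the deposited table places the gene on the plus strand. Its match may thus stand before a start other than that of the row tested. Chac1, Nupr1, Pycr1 and Slc1a4 held the form TGATGCAA, as did all 6 synthetase windows, while Slc7a1 and the second site of Aars1 held TGATGAAA and Trib3 TGATGTAA.

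**Figure D2:**
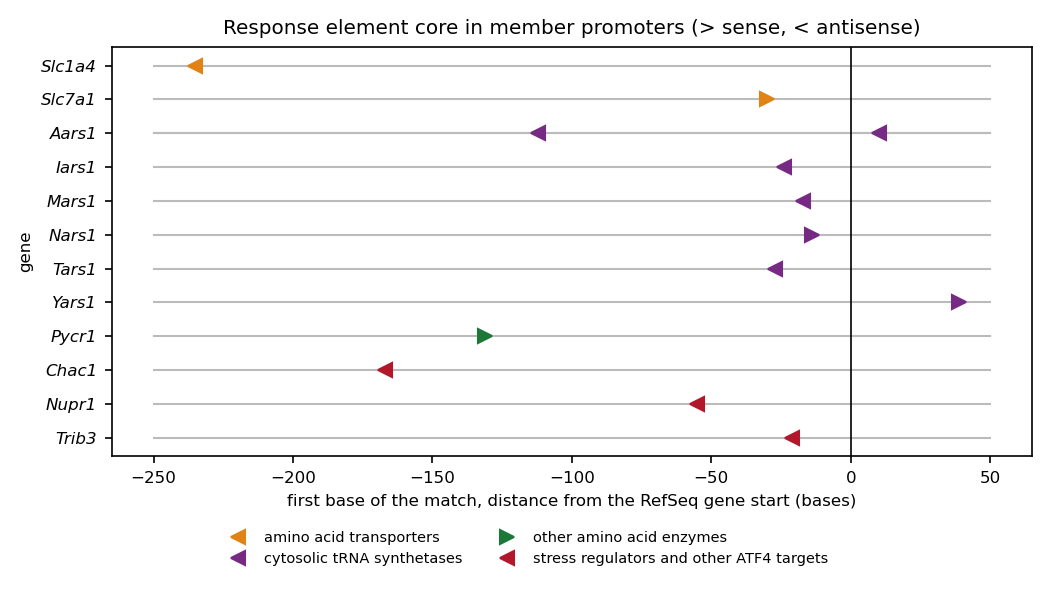
Each grey line is the promoter window of 1 gene, from 250 bases before to 50 bases after the RefSeq gene start, and each triangle is the first base of a match to TGATGNAA, pointing right for sense and left for antisense. Colours give the role, and 5 of the 7 synthetase matches lie within 30 bases of the start, from -27 to 10.

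Among stress regulators and other ATF4 targets, 9 of 10 fell and 0 rose, beside 19.0% lower and 20.1% higher of all tested genes. DESeq2, limma and edgeR at an unadjusted p under 0.05 also called 0 higher. Atf4 itself (ENSRNOG00000017801, chromosome 7, 111804183 to 111806446 in mRatBN7.2) stood at 263, 263 and 251 FPKM in untreated and 217, 224 and 230 FPKM in LPS libraries. The groups did not overlap, but the fall was small (log2 fold change -0.26 ± 0.041 SE, adjusted p = 0.00147 by edgeR). Its RNA was the most abundant of the module, at a mean of 259 ± 6.64 and 223 ± 6.64 FPKM (SD, n = 3). Atf5, a related bZIP factor translated under the same control, held 129, 185 and 103 FPKM without and 46.5, 57.2 and 51.7 FPKM with LPS. Its untreated values were the most scattered of the stress genes, yet all lay above the LPS values, and its log2 fold change was -1.47 ± 0.19 (SE, adjusted p = 0.000609 by edgeR). Ddit3, which encodes the pro-apoptotic factor CHOP, held 23.6, 27.8 and 24.7 FPKM without and 17.2, 19.2 and 18.3 FPKM with LPS. It was 1.44-fold lower (adjusted p = 0.00213).

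Known ATF4 targets of the stress response fell as well. Chac1, a glutathione-degrading enzyme, held 57.9, 76.0 and 65.6 FPKM without and 26.9, 27.0 and 38.4 FPKM with LPS. It was 2.24-fold lower (adjusted p = 0.000641), and LPS replicate 3 stood above the other LPS libraries. Trib3, a pseudokinase that feeds back on ATF4, held 39.9, 45.1 and 42.2 FPKM without and 18.9, 18.9 and 22.1 FPKM with LPS, a log2 fold change of -1.14 ± 0.076 (SE, adjusted p = 5.6e-05). Nupr1, a small stress-induced nuclear protein, held 39.1, 47.8 and 42.5 FPKM without and 20.5, 19.4 and 23.8 FPKM with LPS. Its log2 fold change was -1.07 ± 0.11 (SE, adjusted p = 0.000252), again with no overlap and with LPS replicate 3 highest of its group.

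The remaining genes of this role ranged from 1.87-fold lower to no call. Ppp1r15a, encoding GADD34, which brings a phosphatase to eIF2, was 1.87-fold lower, at 12.8 ± 0.615 and 7.08 ± 2.00 FPKM (SD, n = 3). The leucine sensor gene Sesn2 was 1.49-fold lower, at 35.2 ± 0.560 and 24.4 ± 3.00 FPKM. Vldlr, the very low density lipoprotein receptor, was 1.13-fold lower (adjusted p = 0.0167), but this call did not hold when untreated replicate 2 or 3 or LPS replicate 1 or 2 was dropped (adjusted p up to 0.0609). The translation repressor gene Eif4ebp1 stood at 44.2, 44.97 and 45.7 FPKM without and 43.8, 45.1 and 41.6 FPKM with LPS. These groups overlapped and the gene did not pass (adjusted p = 0.146), except with quantile normalization, where it was called lower (adjusted p = 0.0328).

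Some of these genes overlap others in the table, and the strand setting of the counting is not given, so their reads are uncertain. All 1914 bases of Nupr1 lie under Nupr1l1, which the deposited table places on the opposite strand. The FPKM of Nupr1l1 was 151 to 171 without and 83.1 to 90.7 with LPS. Over its 3114 bases Ppp1r15a shares the strand of Nucb1, which was higher with LPS (log2 fold change 0.26). The 4098 bases of Atf5 lie under Nup62 on the opposite strand, which held 32.1, 26.6 and 44.9 FPKM in the untreated libraries and was lower with LPS (log2 fold change -0.55, adjusted p = 0.0275). Ddit3 and Mars1 overlap by 60 bases.

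**Figure D3:**
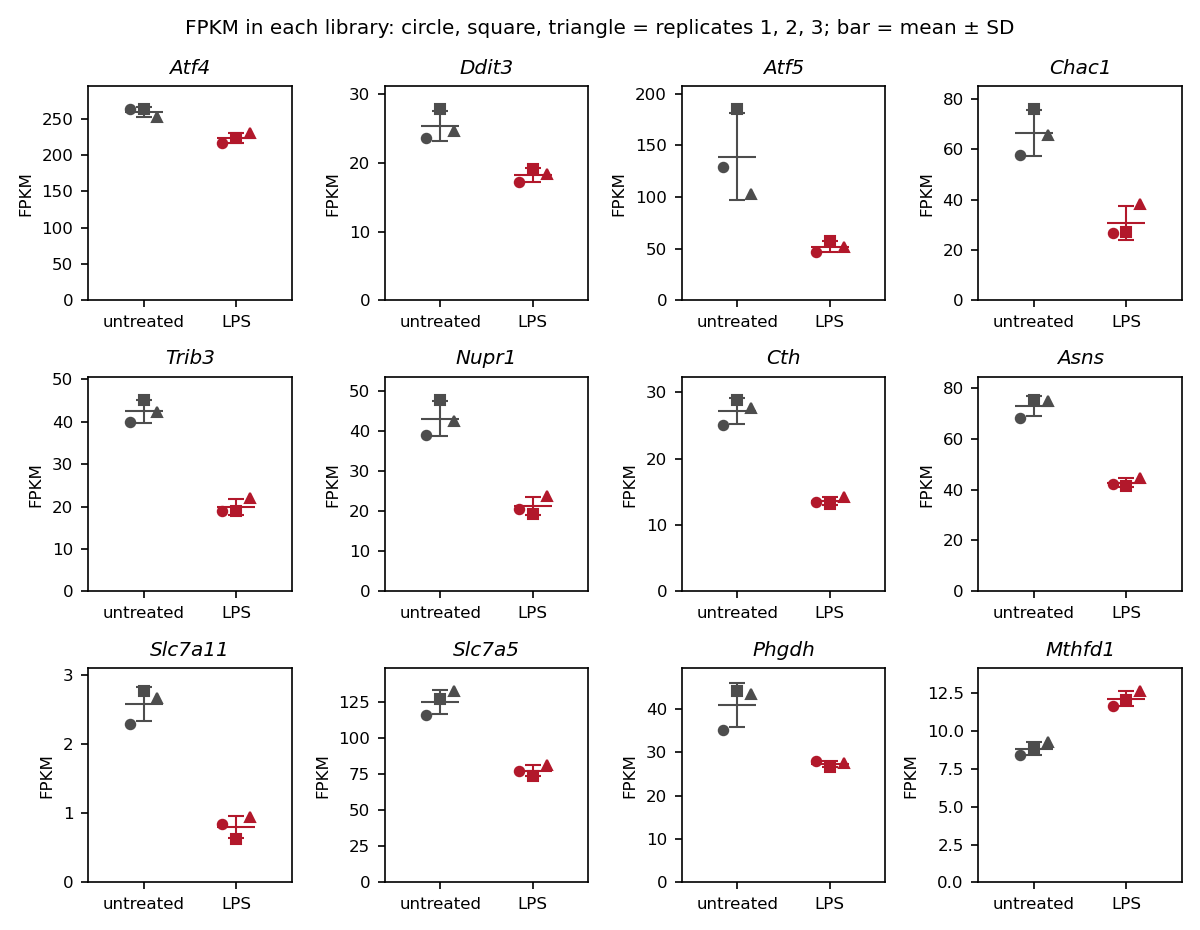
FPKM of 12 genes in each library, with untreated libraries in grey and LPS libraries in red, and with the bar and whiskers giving the mean and SD of 3 libraries. Circles, squares and triangles mark replicates 1, 2 and 3, axes start at 0, and in each panel the 2 groups are separate, with LPS higher for Mthfd1 and lower for the other genes.

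Serine and one-carbon enzymes moved in both directions, with 6 of 9 lower (66.7%) and 3 higher (33.3%). Of all tested genes 19.0% were lower and 20.1% higher. The genes of serine synthesis from glycolytic intermediates all fell, as did Mthfd2, Shmt1 and Aldh1l2, while Shmt2, Mthfd1 and Mthfd1l rose. Phgdh, the first enzyme of serine synthesis, held 35.0, 44.1 and 43.3 FPKM without and 28.0, 26.6 and 27.5 FPKM with LPS (1.54-fold lower, adjusted p = 0.000888). Psat1, the aminotransferase of the next step, held 52.8, 59.5 and 62.8 FPKM without and 45.9, 42.7 and 45.3 FPKM with LPS (1.35-fold lower). Psph, the phosphatase that completes the path, held 12.6, 12.9 and 14.2 FPKM without and 8.72, 9.14 and 9.39 FPKM with LPS (1.51-fold lower). In Phgdh and Psat1 untreated replicate 1 was the lowest untreated library, having covered 47.2% and 46.3% of the distance, in log2(FPKM + 1), that parts untreated replicates 2 and 3 from LPS.

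Mitochondrial folate genes moved apart. Mthfd2, the mitochondrial dehydrogenase and cyclohydrolase and an ATF4 target, held 48.0, 53.7 and 55.4 FPKM without and 37.4, 37.5 and 39.4 FPKM with LPS. It was 1.42-fold lower (log2 fold change -0.51 ± 0.064 SE, adjusted p = 0.000558). Mthfd1l, the mitochondrial formate-releasing synthetase, was higher instead, at 13.4, 14.3 and 13.1 FPKM without and 18.5, 17.8 and 16.5 FPKM with LPS (log2 fold change 0.32 ± 0.059, adjusted p = 0.00326). The ratio of Mthfd2 to Mthfd1l FPKM, which does not depend on library scaling, was 3.58, 3.76 and 4.22 without and 2.02, 2.11 and 2.39 with LPS. This pair was chosen after its values were seen, and the ratio is given without a test. Aldh1l2, which removes formyl groups from folate in mitochondria, fell from 59.1 ± 2.40 to 50.8 ± 0.879 FPKM (SD, n = 3).

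The 3 rises of the module are singled out here after their values were seen. Mthfd1, the cytosolic trifunctional folate enzyme used in purine and thymidylate synthesis, stood at 8.42, 8.80 and 9.30 FPKM without and 11.7, 12.1 and 12.6 FPKM with LPS. It was 1.33-fold higher (log2 fold change 0.41 ± 0.057 SE, adjusted p = 0.00094). Shmt2, the mitochondrial serine hydroxymethyltransferase, was 1.13-fold higher, at 66.1, 64.8 and 60.9 FPKM without and 75.2, 77.3 and 72.3 FPKM with LPS. Its adjusted p of 0.0177 became 0.0587 when untreated replicate 3 was dropped, 0.0652 or 0.0635 when LPS replicate 1 or 2 was, and 0.104 with quantile normalization. The cytosolic form Shmt1 was 1.27-fold lower at 3.83 ± 0.0505 and 3.13 ± 0.270 FPKM (SD, n = 3). Its adjusted p of 0.0187 rose to at most 0.0720, past the threshold, when untreated replicate 2 or LPS replicate 1 or 2 was dropped.

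The other amino acid enzymes fell in 5 of 5 cases, with 0 higher by edgeR, DESeq2, limma or at an unadjusted p under 0.05. By edgeR 19.0% of all tested genes were lower and 20.1% higher. Cth, which makes cysteine from cystathionine, held 25.1, 28.8 and 27.7 FPKM without and 13.4, 13.1 and 14.2 FPKM with LPS. Its level was thus 2.07-fold lower (log2 fold change -1.05 ± 0.066 SE), and its adjusted p of 4.57e-05 by edgeR was the smallest of the module. Asns (ENSRNOG00000007546, chromosome 4, 35785237 to 35803423), the asparagine synthetase and a classic ATF4 target, held 68.3, 75.2 and 74.8 FPKM without and 42.1, 41.3 and 44.7 FPKM with LPS. It was 1.76-fold lower (adjusted p = 6.23e-05), with little scatter inside either group. Gpt2, the mitochondrial alanine transaminase, held 7.11, 8.12 and 7.23 FPKM without and 5.49, 5.11 and 5.55 FPKM with LPS (1.44-fold lower). Of the proline path, Pycr1, which makes proline in its last step, held 20.0, 20.0 and 20.2 FPKM without and 14.5, 14.5 and 15.7 FPKM with LPS (1.39-fold lower). Aldh18a1, at its entry, fell less, from 59.7 ± 1.43 to 51.6 ± 0.911 FPKM (SD, n = 3).

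All 8 amino acid transporter genes were called lower, with 0 higher by edgeR, DESeq2, limma or at an unadjusted p under 0.05. By edgeR 19.0% of all tested genes were lower and 20.1% higher. Slc7a11 (ENSRNOG00000010210, chromosome 2, 133963107 to 134517536), the cystine importer, showed the greatest fall of the module by fitted fold change. It held 2.30, 2.77 and 2.67 FPKM without and 0.841, 0.631 and 0.948 FPKM with LPS, and so passed the filter only through the untreated libraries. The counts behind these values were 912, 1051 and 1059 units without and 331, 248 and 382 units with LPS. Its log2 fold change was -1.72 ± 0.16 (SE, adjusted p = 0.000168 by edgeR). On the log2(FPKM + 1) scale, where the added 1 exceeds its LPS level, limma gave -0.99, or -1.04 with quantile normalization.

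The remaining transporters were abundant. Slc7a1, the importer of cationic amino acids, held 12.3, 14.9 and 15.1 FPKM without and 8.14, 7.55 and 9.30 FPKM with LPS (1.75-fold lower, adjusted p = 0.00052). Slc7a5, the LAT1 carrier of large neutral amino acids, held 116, 127 and 133 FPKM without and 77.1, 73.7 and 81.2 FPKM with LPS (1.68-fold lower, adjusted p = 0.000116). Slc3a2, the heavy chain that both Slc7a5 and Slc7a11 proteins need at the cell surface, fell less, from 158 ± 6.46 to 123 ± 2.94 FPKM (SD, n = 3). The FPKM ratio of Slc7a5 to Slc3a2 within a library was 0.770, 0.783 and 0.816 without and 0.609, 0.606 and 0.668 with LPS. This ratio was also chosen after the values were seen and was not tested.

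Of the sodium-coupled carriers, Slc1a4, a carrier of alanine, serine and cysteine, held 50.4, 56.9 and 58.3 FPKM without and 39.97, 39.5 and 40.8 FPKM with LPS (1.43-fold lower). Its glutamine-carrying relative Slc1a5 and the glycine carrier Slc6a9 were 1.35-fold and 1.33-fold lower. Slc38a2, a carrier of small neutral amino acids known to respond to starvation, changed least. It held 166, 157 and 154 FPKM without and 153, 146 and 153 FPKM with LPS, a 1.09-fold difference (adjusted p = 0.0456). That call was lost in 9 of 17 alternatives, with adjusted p up to 0.186 by limma, 0.0584 with the replicate number as a block, and from 0.0681 to 0.136 when untreated replicate 2 or 3 or any LPS library was dropped.

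**Figure D4:**
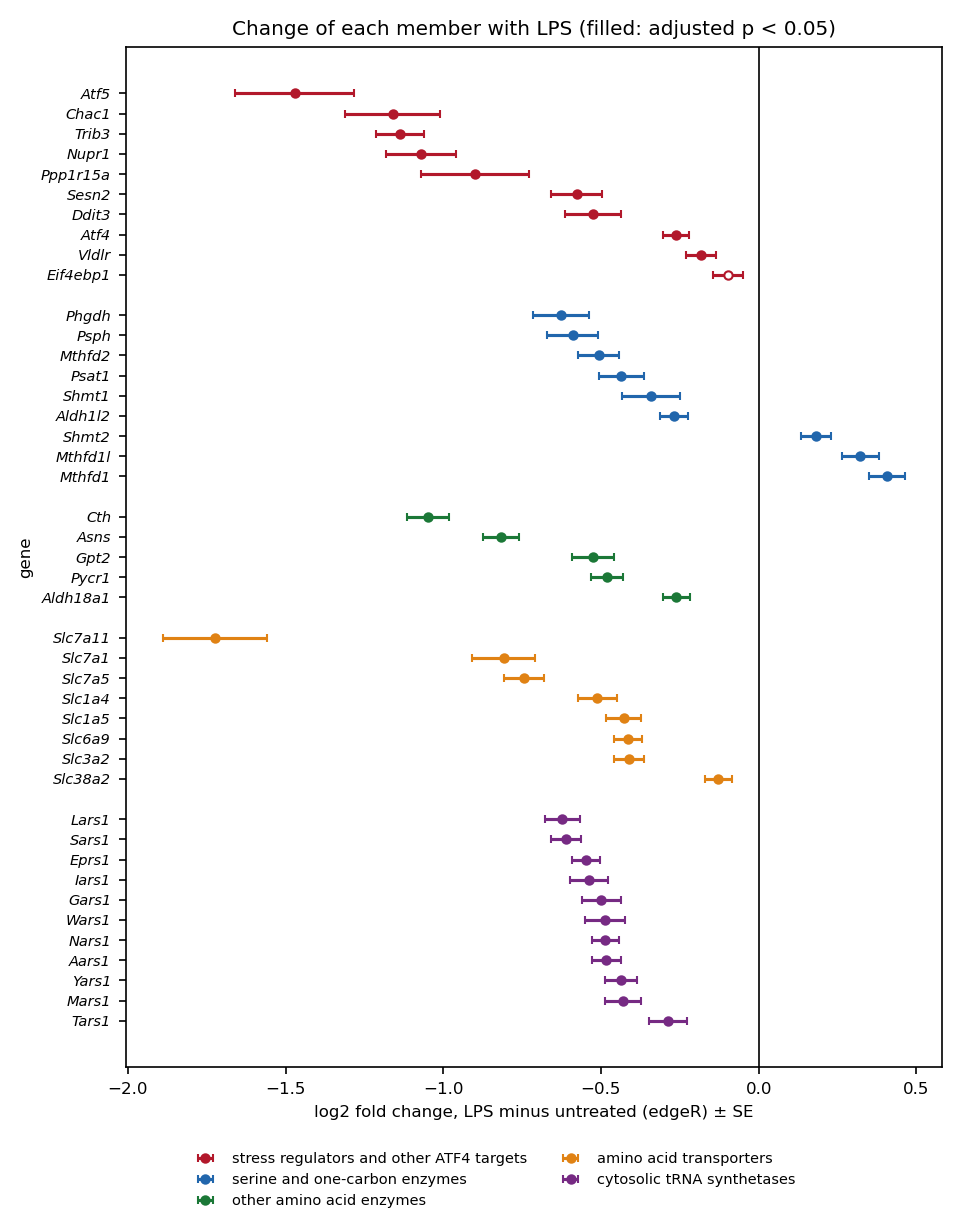
Log2 fold change of each gene, LPS minus untreated, from the edgeR fit to 3 libraries a group, with whiskers of 1 SE and genes sorted within each role. Filled points passed an adjusted p of 0.05. The synthetases lie close together, from -0.62 for Lars1 to -0.29 for Tars1, while the stress genes spread from -1.47 for Atf5 to -0.10 for Eif4ebp1.

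Cytosolic tRNA synthetases, the enzymes that load amino acids onto tRNA, fell in 11 of 11 cases and within a narrow range of size. Of all tested genes 19.0% were lower and 20.1% higher, beside 0 of the 11 higher. DESeq2, limma and edgeR at an unadjusted p under 0.05 also called 0 higher. Lars1, for leucine, held 35.8, 39.1 and 39.4 FPKM without and 24.9, 25.5 and 26.6 FPKM with LPS (1.54-fold lower, adjusted p = 0.000131). Sars1, for serine, held 76.2, 81.7 and 77.8 FPKM without and 52.0, 53.0 and 54.6 FPKM with LPS (1.53-fold lower, adjusted p = 8.2e-05). In both genes the groups were far apart relative to their scatter. Eprs1, whose protein loads both glutamate and proline, held 108, 115 and 112 FPKM without and 79.3, 76.6 and 81.4 FPKM with LPS (1.46-fold lower, adjusted p = 0.000109). Iars1, for isoleucine, held 26.01, 28.4 and 29.6 FPKM without and 19.8, 19.4 and 20.6 FPKM with LPS (1.45-fold lower, adjusted p = 0.000316).

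The other synthetase genes of the module were lower by 1.41-fold for Gars1, 1.40-fold for Wars1, Nars1 and Aars1, 1.35-fold for Yars1 and Mars1, and 1.22-fold for Tars1. These load glycine, tryptophan, asparagine, alanine, tyrosine, methionine and threonine, in that order. Gars1 was the most abundant, at 124 ± 9.75 and 90.8 ± 1.24 FPKM (SD, n = 3). Tars1 had its untreated replicate 1 at 36.2 FPKM, the lowest untreated value, against 33.2, 32.1 and 33.2 FPKM with LPS, so its groups were separate by a small margin.

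Of the 9 cytosolic synthetase genes outside the module, 2 fell, 1 rose and 6 did not pass, beside 19.0% lower and 20.1% higher of all tested genes, while the 11 of the module all fell (median log2 fold change -0.49). The cysteine enzyme gene Cars1 fell from 32.7 ± 1.48 to 26.1 ± 1.19 FPKM (SD, n = 3), a 1.30-fold difference (adjusted p = 0.00122). Farsb, a chain of the phenylalanine enzyme, was 1.24-fold lower, and Vars1, for valine, was 1.15-fold higher. Among those that did not pass, Hars1, for histidine, and Kars1, for lysine, had log2 fold changes of -0.05 and 0.06. Of the 10 genes with a window among these synthetases and their scaffold genes, only Cars1 held TGATGNAA. Among the further ATF4-linked stress genes described below, 3 of 11 genes with a window held it, namely Fgf21, Herpud1 and Jdp2. Of these Jdp2 was lower with LPS, Herpud1 did not pass and Fgf21 was not tested. In the eIF2 list 1 of 13 genes with a window held it (Ppp1r15b) and among further transporters 1 of 14 (Slc38a1). Both genes were called lower, but for Slc38a1 the FPKM of the groups overlapped (adjusted p = 0.0436 by edgeR). The remaining lists held 0. The summed FPKM of the 11 module genes over that of the other 9 was 2.59, 2.75 and 2.78 without and 1.95, 1.89 and 2.02 with LPS. The ratio is a description, and the difference between the lists was not tested, as the members were chosen with results of these data known. Of the scaffold genes, Eef1e1 was 1.19-fold lower (adjusted p = 0.0282), and lost its call when untreated replicate 2 or 3 or LPS replicate 2 or 3 was dropped (adjusted p up to 0.0803). Of 15 tested mitochondrial synthetases, 0 fell by edgeR, 2 at an unadjusted p under 0.05 and 2 by DESeq2, and 1 fell by edgeR when untreated replicate 1 or 2 or LPS replicate 1 was dropped. Aars2 was the 1 that rose (1.19-fold), a call lost in 7 of the 16 alternatives that tested it (adjusted p up to 0.124).

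Other genes tied to ATF4 or to eIF2 moved in both directions. Of 14 tested further ATF4-linked stress genes, 8 fell (57.1%) and 3 rose (21.4%), beside 19.0% lower and 20.1% higher of all tested genes. The stress factor Atf3 held 18.2, 20.0 and 19.5 FPKM without and 5.40, 5.47 and 8.42 FPKM with LPS, a 3.10-fold difference (adjusted p = 0.000211). Gdf15, a secreted stress cytokine, fell from 3.72 ± 0.143 to 1.47 ± 0.355 FPKM (SD, n = 3). Cebpb, a bZIP partner of ATF4 that is also an inflammatory response gene, rose instead, from 45.4, 26.04 and 24.2 FPKM to 87.3, 93.1 and 85.6 FPKM (2.69-fold, adjusted p = 0.00106). Among 13 kinases, phosphatase subunits and initiation factors around eIF2, 4 fell (30.8%) and 0 rose by edgeR and DESeq2. Limma and edgeR at an unadjusted p under 0.05 called 1 higher. Eif2b3 and Eif2b2, subunits of the eIF2 exchange factor, were 1.53-fold and 1.26-fold lower, and Ppp1r15b, the constitutive partner of the eIF2 phosphatase, was 1.26-fold lower.

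Another list took in the ATF6 and XBP1 arms of the unfolded protein response, with their sensors and factors, endoplasmic reticulum chaperones and folding enzymes, and genes of protein degradation there. Of 17 tested, 10 rose (58.8%) and 4 fell (23.5%), beside 20.1% higher and 19.0% lower of all tested genes. The median log2 fold change of the 17 was 0.23. The 10 that rose were Hspa5, Hsp90b1, Calr, Pdia3, Pdia4, Pdia6, Dnajb11, Sdf2l1, Creld2 and Hyou1, all known as chaperones, folding enzymes or their cofactors. The 4 that fell were the sensors Atf6 and Ern1, the degradation gene Sel1l and the cochaperone gene Dnajb9. Sdf2l1 held 13.7, 11.3 and 11.3 FPKM without and 20.6, 23.9 and 21.7 FPKM with LPS (1.77-fold higher, adjusted p = 0.000456). Creld2 rose from 19.9 ± 0.658 to 31.6 ± 1.44 FPKM (SD, n = 3), and Hsp90b1, the chaperone GRP94, from 283 ± 11.7 to 437 ± 6.60 FPKM. The difference between these genes and the ATF4 module was not tested.

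Further one-carbon genes and transporters were mixed as well. Beside 20.1% higher and 19.0% lower of all tested genes, 3 of 12 tested one-carbon and methionine cycle genes rose (25%) and 4 fell (33.3%). Among those that rose were Tyms, the thymidylate synthase, by 1.54-fold, and Ahcy, which clears S-adenosylhomocysteine, by 1.44-fold. For Tyms the adjusted p of 0.0114 became 0.0511 when LPS replicate 1 was dropped. Of 15 further amino acid transporters, 5 rose (33.3%) and 3 fell (20%), or 1 fell when untreated replicate 2 or 3 was dropped. Slc43a2, a carrier of large neutral amino acids, rose from 0.950 ± 0.162 to 2.503 ± 0.0531 FPKM (SD, n = 3), the glutamate carrier Slc1a3 1.597-fold and Slc7a8 1.65-fold.

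**Figure D5:**
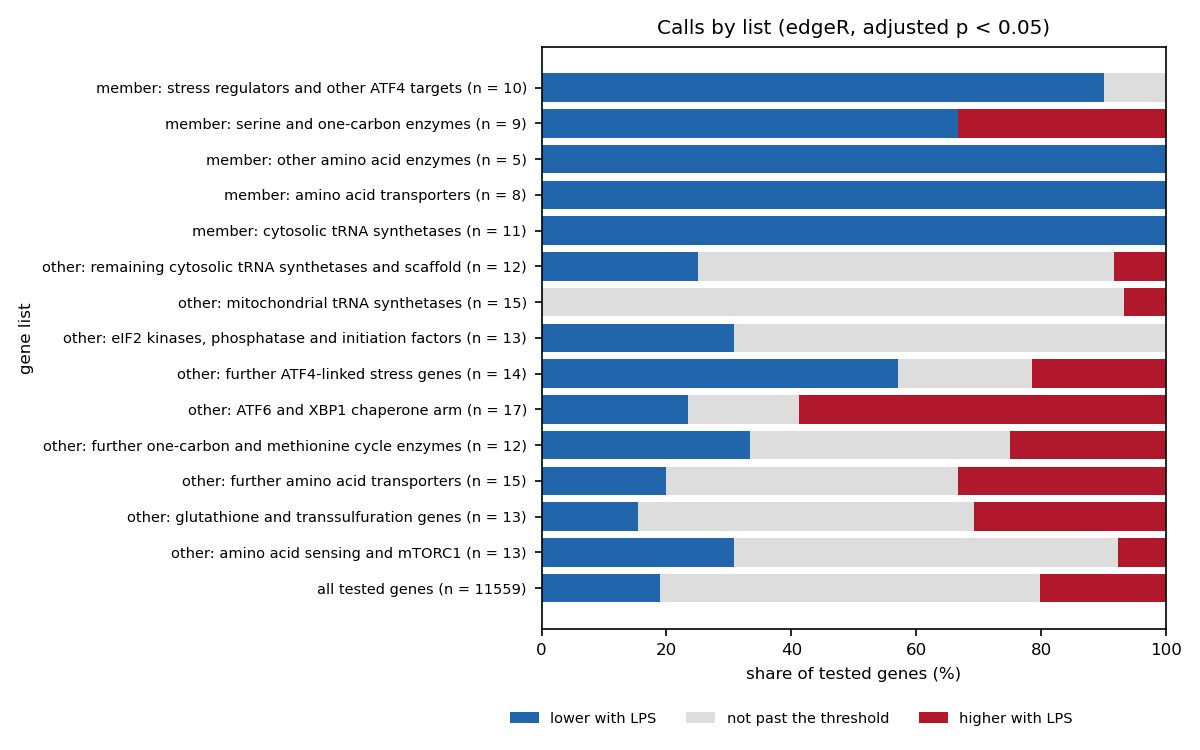
Share of tested genes called lower (blue), not past the threshold (grey) or higher (red) with LPS by edgeR, for the 5 roles of the module, 9 other lists of amino acid and stress genes, and all 11559 tested genes, with the number tested in brackets. Blue fills the whole bar for 3 of the 5 roles, against 19.0% of all tested genes.

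The order of libraries within groups was as follows. Of the 39 genes called lower, 32 (82.1%) had untreated replicate 1 as the lowest untreated library, against 54.8% of all 2201 genes called lower. Among the 9 stress genes called lower this held for 5, or 55.6%, close to that background. The share with LPS replicate 3 as the highest LPS library was 71.8%, or 28 genes, against 47.3%. Untreated replicate 1 lay a median of 19.1% of the way to the LPS mean for the 39 genes and 16.9% for all genes called lower. These shares are descriptions, since genes of 1 library share its scaling and depth. Without untreated replicate 1 the count stayed at 39 lower and 3 higher, and the module's median log2 fold change was -0.56.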

How the data were processed

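The deposited table gives, per the file headers, an FPKM value and a count for each gene in each of 6 libraries. The submitters' processing notes list cutadapt 1.9, HISAT2 2.2.1, StringTie 2.1.6, edgeR and DESeq2, with build mRatBN7.2, and give no order for them. How the authors derived the deposited estimated counts (expected counts) from the reads, the annotation and the strand setting were not given in the sources used here. The counts are whole, but from 31.9% to 32.9% of values between 1 and 40 were multiples of 4, where equally frequent values would give 25%. A fragment was taken to be worth about 4 units, which is an assumption, as most of these values were not multiples of 4. The main fit used the undivided counts. With counts divided by 4, 39 module genes were lower and 3 higher by edgeR. The deposited FPKM values were scaled by the authors per kilobase and per M fragments.

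A gene was tested if its FPKM reached 1 in 3 or more libraries, which 11559 did. The counts were rounded and fitted with edgeR 4.0.16 under R 4.3.3 (TMM factors, glmQLFit and glmQLFTest, group as the only term), and p-values were adjusted over all tested genes by the Benjamini-Hochberg method, with a threshold of 0.05. The SE is |log2 fold change| / sqrt(F). Means and SDs are of FPKM. On simulated counts for these 11559 genes with 200 changed, the fit recovered 18% of 1.25-fold changes, 68% of 1.5-fold changes and 100% of 2-fold and 3-fold changes, and 6.54% of its calls were false. In the data 39.1% of tested genes were called, a far larger share, so these rates do not carry over to the results above. DESeq2 1.42.0 and limma 3.58.1 served as alternatives.

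The 44 symbols, their 5 roles and 9 further lists were chosen with earlier results of these data known. Values in every library are given for Atf4, Ddit3 and the 4 called genes of each role with the largest change. From each further list up to 3 called genes with the largest change are named, where 1 of the groups averaged 1 FPKM or more. A gene that this rule names is not reported here. Other genes with library values were added after the values were seen. No list was tested as a set.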

Additional observations from a re-analysis of the deposited data

How the results depend on the processing

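The module's counts were recomputed under 17 alternatives. Over them 36 to 40 of its genes were called lower and 2 or 3 higher, and 0 of 729 single-gene results changed direction. The same side of the threshold was kept in 708 of the 729, and by 38 of the 43 genes in every alternative. The exceptions were Eif4ebp1, Vldlr, Shmt1, Shmt2 and Slc38a2. Leaving out 1 library gave 36 to 39 lower and 2 or 3 higher. The synthetases stayed at 11 lower in all 17. With FPKM of at least 5, Slc7a11 and Shmt1 were not tested. Over all genes, limma on log2(FPKM + 1) called 2903 higher and 1685 lower (63.3% higher), and quantile normalization 1996 and 2466 (44.7%), against 2323 and 2201 (51.3%) by edgeR. The median of all tested genes moved by at most 0.05 on the log2 scale. Whether the numbers in the titles pair the libraries is not known. Same-numbered deviations correlated weakly, at 0.069, 0.085 and 0.12, but each library correlated best with its own number, so weak pairing is not excluded. The replicate block gave 38 module genes lower and 3 higher, and 2160 genes higher and 2024 lower in all. For the 9 further lists, 37 of 306 counts moved by more than 1.5 times. One-carbon genes higher went from 3 to 5 by limma and to 1 with FPKM of at least 5, further transporters lower from 3 to 1 and higher from 5 to 3, sensing genes lower from 4 to 2 and higher from 1 to 0, and glutathione genes lower from 2 to 1. Mitochondrial synthetases higher went from 1 to 0 or 2 and lower from 0 to 1 or 2, and eIF2 genes higher from 0 to 1. Calls on changes as small as the smallest simulated ones rest on only 3 libraries a group. In the simulation 18% of 1.25-fold changes were recovered, but fewer genes changed there than were called here.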

Other observations

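Genes of glutathione metabolism and its NRF2 control are neighbours of the cystine importer and of Cth. Of 13 tested, 4 rose (30.8%) and 2 fell (15.4%), beside 20.1% higher and 19.0% lower of all tested genes. Only 1 fell when untreated replicate 3 or any LPS library was dropped. Ggct, which degrades a glutathione breakdown product, was 1.57-fold higher and glutathione reductase, Gsr, 1.36-fold higher, while heme oxygenase, Hmox1, fell from 73.4 ± 8.33 to 51.5 ± 2.64 FPKM (SD, n = 3, adjusted p = 0.000882 by edgeR). Of 13 tested genes that pass amino acid levels to mTORC1, 4 fell (30.8%) and 1 rose (7.69%). In this list 2 fell when untreated replicate 3 or LPS replicate 2 was dropped. The arginine sensor relative Castor2 was 1.501-fold higher, at 3.03 ± 0.455 and 4.70 ± 0.150 FPKM. Flcn, a regulator of Rag GTPases, was 1.32-fold lower. Sesn3, a relative of Sesn2, was 1.26-fold lower (adjusted p = 0.0202), a call lost by limma (adjusted p = 0.0527) and without untreated replicate 3 or LPS replicates 1 or 2 (adjusted p up to 0.0777).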
